A study of Mus musculus with 5 samples.

Results

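The genes described here are 34 transcripts of epidermal keratinocytes, the cells that build the outer layer of skin, in 5 RNA sequencing libraries of mouse Lewis lung carcinoma (LLC). They were chosen by name: a row of a deposited table is a member where its symbol is 1 of the 34. Of these, 30 were listed in all 5 libraries, IVL was listed in 4, and LOR, KRTDAP and ALOX12B were listed in 2. The 30 are part of 13979 symbols shared by the 3 tables from which levels were taken, and the longest of these tables holds 55324 symbols.

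The study loaded BMN673 (BMN, talazoparib, an inhibitor of the DNA repair enzyme PARP) into PAZA, a polymer carrier to which the DNA methyltransferase inhibitor 5-azacytidine is conjugated. Its 5 groups were Control, BMN alone, PAZA alone, BMN/PAZA low dose and BMN/PAZA high dose, with 1 library each. By the labels these are LLC cells kept in culture and exposed for 72 h, whereas the study's methods give tumors collected for RNA from mice a day after the last treatment. In that account all 5 groups carry LLC tumors, which are grown under the skin of the flank of female C57BL/6 mice of 4 to 6 weeks, and how many tumors make up a library is not given in the sources used here. LLC is 1 carcinoma line, and a tumor under the skin also holds cells of the host.

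Epidermis renews itself from a basal layer, whose cells make the keratin pair KRT5 and KRT14 under the transcription factor TRP63. Cells that leave this layer switch to KRT1 and KRT10, change their desmosomal cadherins, and later make filaggrin, involucrin and loricrin, the proteins of the cornified layer. KRT6A, KRT16 and KRT17 are made in hair follicles and in wounded skin.

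Levels are given as scaled FPKM, which are deposited values multiplied so that each library sums to 1e+06 over the 13979 shared symbols. They are per length of transcript, so genes can be compared with each other within a library. The tables were normalised separately by the authors, so a level set across tables rests on this scaling. A difference is on the log2(value + 1) scale, and "at least 2-fold" means a difference of 1 or more on that scale, which understates the change of genes with low levels. With 1 library per group no difference could be tested, and there is no replicate check on any value.

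The 3 stretches of promoter below are shown because their genes stand for the 3 behaviors described next: KRT5 differed widely between libraries, FLG had the largest ratio of BMN to Control, and SPRR1A hardly differed. They are RefSeq sequences of GRCm38.p6, from 250 bases before to 50 after the start of the gene and 5′ to 3′ on its own strand. Capitals mark TATAAA (the TATA box) and TGANTCA (bound by AP-1 factors) on either strand, and these did not overlap.
KRT5, chr15:101712856-101713155, minus strand: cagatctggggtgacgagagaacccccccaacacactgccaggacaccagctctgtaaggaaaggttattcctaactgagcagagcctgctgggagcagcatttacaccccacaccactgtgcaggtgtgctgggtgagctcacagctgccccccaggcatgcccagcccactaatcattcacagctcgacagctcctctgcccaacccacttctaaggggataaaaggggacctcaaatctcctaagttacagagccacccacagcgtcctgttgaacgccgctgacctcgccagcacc
FLG, chr3:93273296-93273595, plus strand: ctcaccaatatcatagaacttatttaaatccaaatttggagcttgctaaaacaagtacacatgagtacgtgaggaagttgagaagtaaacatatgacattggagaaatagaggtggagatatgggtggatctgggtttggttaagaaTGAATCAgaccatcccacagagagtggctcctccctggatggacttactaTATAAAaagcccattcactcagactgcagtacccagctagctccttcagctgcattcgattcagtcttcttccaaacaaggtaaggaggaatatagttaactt
SPRR1A, chr3:92485832-92486131, minus strand: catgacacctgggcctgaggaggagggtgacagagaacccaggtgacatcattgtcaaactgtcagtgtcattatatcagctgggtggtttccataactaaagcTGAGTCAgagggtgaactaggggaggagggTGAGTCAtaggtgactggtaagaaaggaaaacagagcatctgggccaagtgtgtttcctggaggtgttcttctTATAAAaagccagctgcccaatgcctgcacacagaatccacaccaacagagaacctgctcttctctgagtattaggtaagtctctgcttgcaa
The KRT5 window held neither motif, the FLG window held 1 of each, and the SPRR1A window held 1 TATAAA and 2 TGANTCA. A window was given for 21 of the 34 members, and for 12 of these it sits at the start of the annotated gene. TATAAA was in 7 of the 21 (33.3%, against 15.7% of 27025 genes with a window) and TGANTCA in 9 (42.9% against 8.97%). GGGNGG (the GC box) was in all 21 (100% against 70.1%), and AACCNGTT (bound by grainyhead factors) was in 1, SFN (4.76% against 2.35%). These are matches of letters on both strands and not shown to be sites.

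Some of the members sit in clusters of the genome. The acidic keratins KRT10, KRT14, KRT15, KRT16 and KRT17 lie on chromosome 11, and the basic keratins KRT1, KRT5, KRT6A, KRT77 and KRT79 on chromosome 15. FLG, IVL, LOR, SPRR1A and SPRR1B lie in the epidermal differentiation complex of chromosome 3. SBSN (30732674 to 30756134), DMKN (30763756 to 30781066) and KRTDAP (30787905 to 30791089) are neighbors on chromosome 7. Within the table of BMN and the low-dose library, low dose minus BMN was -1.35 for DMKN and -1.36 for KRTDAP, but 0.35 for SBSN.

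Epidermal transcripts were highest in the BMN library, next in Control, and low in the 3 libraries that received PAZA. BMN held the highest level for 25 of the 30 members listed in all 5 libraries, against 34.9% of all 13979 symbols. BMN was highest and Control second for 21 of the 30, against 16.2% of all symbols. The low-dose library was lowest, ties counted, for 20 of 30, against 17.9% of all symbols. Of these 30, 0 were listed at 0 in Control and in BMN, against 5.34% and 4.42% of all symbols. In PAZA 5 were listed at 0, against 3.9%, in the low-dose library 11, against 2.83%, and in the high-dose library 1, against 5.79%.

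**Figure D1:**
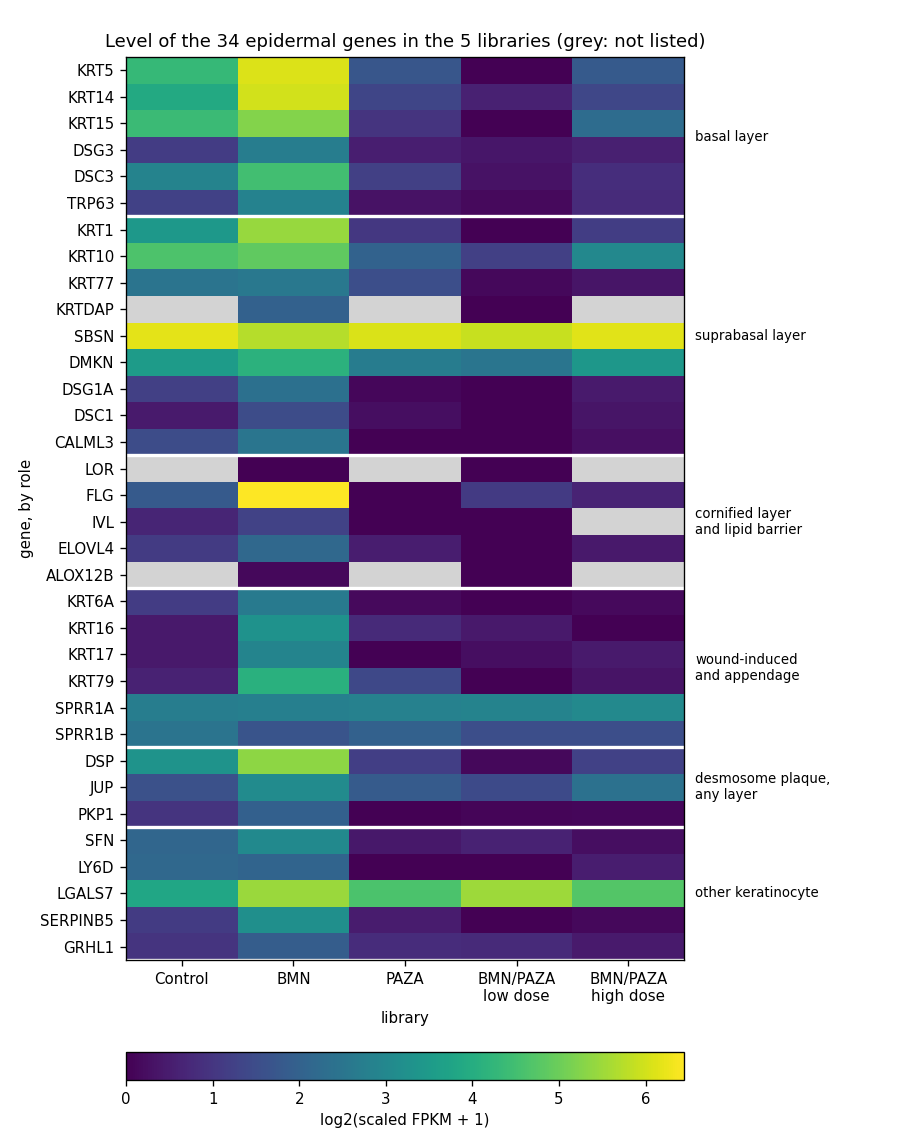
Heat map of log2(scaled FPKM + 1) for the 34 members (vertical axis, grouped by role) in the 5 libraries (horizontal axis), with grey where a gene is not listed. The BMN column is brightest for most rows, the low-dose column is darkest, and SBSN and SPRR1A keep a like color throughout.

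Of the basal genes, KRT5, the basic keratin of basal cells, was 19.1 in Control, 67.3 in BMN, 2.30 in PAZA, 0 in the low-dose and 2.53 in the high-dose library. Its acidic partner KRT14 was 14.1, 62.9, 1.54, 0.503 and 1.59 in the same order. Both were thus several-fold higher in BMN than in Control and several-fold lower in every library with PAZA. KRT15, an acidic keratin of basal and hair follicle stem cells, was 20.0 in Control, 37.2 in BMN, 0.943 in PAZA, 0 in the low-dose and 3.81 in the high-dose library. Its BMN level was 1.86 times that in Control, less than the 4.48 times of KRT14. TRP63, the regulator of stratified epithelia, was 1.39, 6.24, 0.241, 0.114 and 0.737, at lower levels but in a like order. The basal desmosomal cadherin DSC3 was 6.40, 21.5, 1.34, 0.249 and 0.797, and its partner DSG3 was 1.21, 5.59, 0.447, 0.318 and 0.468. The 6 basal genes together came to 62.1 in Control, 200.7 in BMN, 6.81 in PAZA, 1.18 in the low-dose and 9.93 in the high-dose library.

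Of the suprabasal genes, KRT1 was 9.89 in Control, 42.8 in BMN, 1.08 in PAZA, 0 in the low-dose and 1.23 in the high-dose library, a pattern like that of KRT14. Its acidic partner KRT10 was 24.2, 28.0, 3.08, 1.31 and 7.06. KRT10 therefore differed by 1.16 times between BMN and Control where KRT1 differed by 4.33 times, and KRT1 over KRT10 was 0.409 in Control and 1.53 in BMN. KRT77, a basic keratin of sweat ducts and young epidermis, was 4.57 in Control, 4.98 in BMN and 1.9 in PAZA. It was 0.0930 in the low-dose and 0.279 in the high-dose library. The suprabasal cadherins DSG1A (1.33, 4.16, 0.0892, 0 and 0.373) and DSC1 (0.386, 1.85, 0.182, 0 and 0.287) were low in all libraries and highest in BMN. CALML3, a calmodulin-like protein of epithelia, was 1.82 in Control, 4.66 in BMN, 0 in PAZA, 0 in the low-dose and 0.204 in the high-dose library. DMKN, a secreted protein of upper epidermis, had the narrower range of 4.70 in the low-dose library to 16.7 in BMN, with 10.6 in Control and 9.65 in the high-dose library.

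Of the cornified layer genes, FLG was the highest in BMN. FLG, the precursor of filaggrin, which bundles keratin filaments in the outermost living cells, was 2.52 in Control and 86.1 in BMN. It was 0 in PAZA, 1.13 in the low-dose and 0.560 in the high-dose library. FLG was the highest of the 30 members in BMN, with 14.2% of their sum, and its ratio to KRT10 was 0.104 in Control and 3.07 in BMN. IVL, the precursor of the envelope protein involucrin, was 0.577 in Control, 1.42 in BMN, and 0 in PAZA and in the low-dose library. LOR, loricrin, a major protein of the envelope, was listed at 0 in both libraries where it was listed, BMN and low dose. ALOX12B, a lipoxygenase of the lipid barrier, was 0.0920 in BMN and 0 in the low-dose library, and ELOVL4, which elongates very long chain fatty acids, ranged from 0 in the low-dose library to 3.53 in BMN.

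Among the keratins of wounded skin and appendages, KRT16, KRT17 and KRT79 did not exceed 1.64 outside BMN. KRT16 was 0.363 in Control, 8.78 in BMN, 0.704 in PAZA, 0.367 in the low-dose and 0 in the high-dose library. KRT17 was 0.366, 6.46, 0, 0.185 and 0.369, and KRT79, a keratin of the hair follicle opening and sebaceous duct, was 0.524, 16.1, 1.64, 0 and 0.266. These 3 genes did not separate Control from the PAZA libraries, unlike KRT5 and KRT14. KRT6A, a keratin of the follicle and of wounds, was 1.20 in Control, 5.33 in BMN and between 0 and 0.121 in the other libraries.

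The desmosome plaque gene DSP, which ties keratin filaments to the desmosome, was 8.96 in Control, 40.1 in BMN, 1.31 in PAZA, 0.102 in the low-dose and 1.36 in the high-dose library. PKP1, its plaque partner in stratified epithelia, was 0.972 and 2.91 in Control and BMN and at most 0.0899 in the others. JUP, plakoglobin, which is also made outside epidermis, was 2.02 in Control, 7.64 in BMN, 2.61 in PAZA, 1.72 in the low-dose and 4.29 in the high-dose library. JUP in the high-dose library was thus 2.13 times Control, where DSP was 0.152 times Control.

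Of the remaining keratinocyte genes, SFN, an epithelial 14-3-3 protein, was 3.33 in Control, 7.34 in BMN and between 0.177 and 0.533 in the PAZA libraries. LY6D, a surface protein of keratinocytes that some B lineage cells also carry, was 3.55 in Control, 3.23 in BMN, 0 in PAZA, 0 in the low-dose and 0.438 in the high-dose library. It was low with PAZA but not higher in BMN than in Control. SERPINB5, the serpin maspin, was 1.18 in Control, 8.21 in BMN and 0.417 or less elsewhere. GRHL1, a grainyhead factor of epidermal differentiation, was 0.957 in Control, 2.73 in BMN and between 0.389 and 0.763 in the others.

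The 4 members least like KRT14 over the libraries were SBSN, SPRR1A, SPRR1B and LGALS7. SBSN, suprabasin, a secreted protein of differentiating keratinocytes, was 72.0 in Control, 52.4 in BMN, 67.0 in PAZA, 59.0 in the low-dose and 69.9 in the high-dose library. SPRR1A, a cornified envelope precursor that is also induced by injury in other cells, was 5.60, 5.83, 6.16, 6.41 and 7.13, and its relative SPRR1B was 4.63, 2.19, 2.97, 1.93 and 1.91. SBSN and SPRR1A stayed at their level in libraries where KRT5 and KRT14 were near 0. LGALS7, galectin-7, a lectin of stratified epithelia, was 13.1 in Control, 43.8 in BMN, 23.4 in PAZA, 44.4 in the low-dose and 25.1 in the high-dose library. It was lowest in Control and about as high in the low-dose library as in BMN. The 4 were picked out after their values were seen, so they are a description.

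The 30 members summed to 237.4 in Control, 606.5 in BMN, 126.5 in PAZA, 123.8 in the low-dose and 141.6 in the high-dose library. SBSN, LGALS7, SPRR1A and SPRR1B made up 40.2% of that sum in Control and 17.2% in BMN, but 78.7%, 90.2% and 73.5% in PAZA and in the low-dose and high-dose libraries. Without them the other 26 summed to 142.0 in Control, 502.3 in BMN, 27.0 in PAZA, 12.1 in the low-dose and 37.5 in the high-dose library. The sum in PAZA, low dose and high dose was 0.533, 0.522 and 0.597 times Control with the 4 genes and 0.190, 0.0851 and 0.264 times without. Since the 4 were left out for their own pattern, the wider difference without them is set by that choice.

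**Figure D2:**
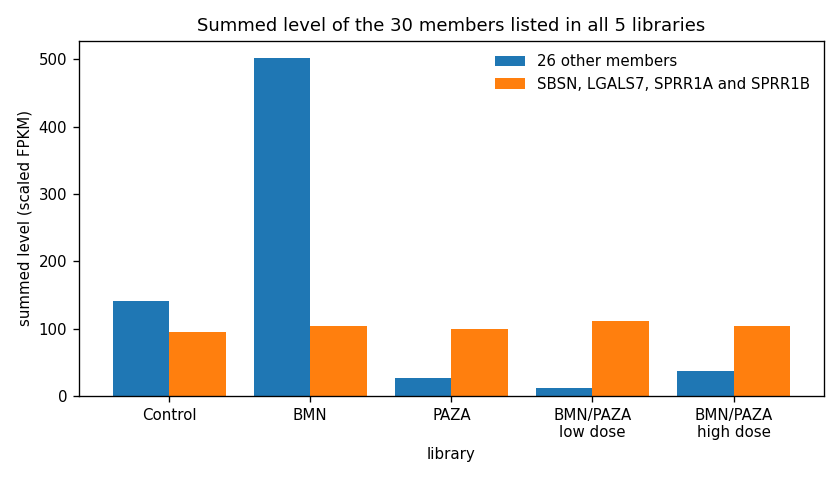
Summed level in scaled FPKM (vertical axis, from 0) of SBSN, LGALS7, SPRR1A and SPRR1B (orange) and of the other 26 members (blue) in the 5 libraries. The orange bars stay between 95.4 and 111.7, whereas the blue bars run from 12.1 in the low-dose library to 502.3 in BMN.

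Against Control, 19 of 31 members were at least 2-fold higher in BMN and 0 lower, where 4.64% of all symbols were higher and 3.7% lower. The median difference of the members was 1.15, and that of all symbols 0.06. In PAZA, 12 of 31 were at least 2-fold lower and 0 higher, against 4.41% and 4.56% of all symbols, with a median of -0.94 against -0.04. In the low-dose library, 17 of 31 were lower and 1, LGALS7, was higher, against 4.85% and 4.45%, with a median of -1.10 against -0.04. In the high-dose library, 12 of 30 were lower and 0 higher, against 4.95% and 3.2%, with a median of -0.90 against -0.17. These 4 comparisons share the Control library, so they are not independent of each other. The number lower in the low-dose library was 10 with values as deposited, against 2.44% of all symbols. Median-of-ratios scaling moved the median of all symbols in the high-dose library by 0.19, and its calls over all symbols turned from 677 lower and 438 higher to 400 lower and 653 higher, with 12 members lower and 2 higher.

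**Figure D3:**
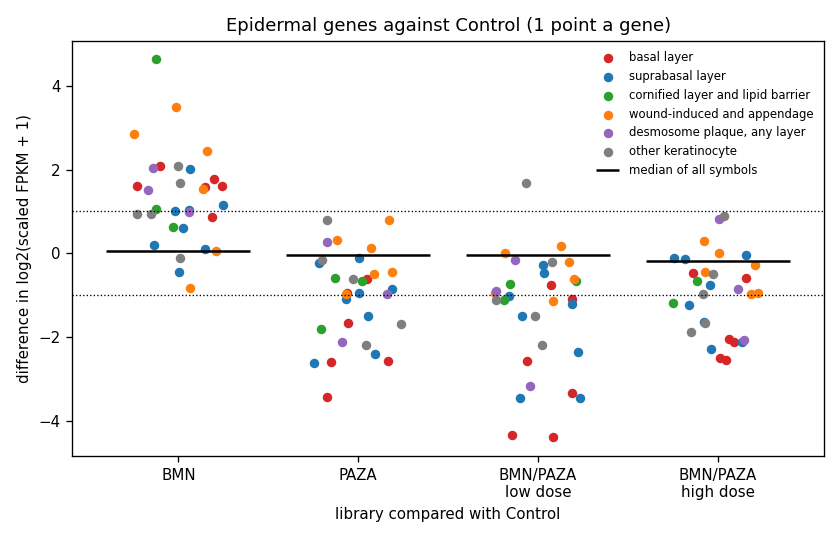
Difference in log2(scaled FPKM + 1) from Control (vertical axis) for each member in the 4 treated libraries (horizontal axis), colored by role, with the median of all symbols as a black bar and dotted lines at 2-fold. Most points lie above the bar in BMN and below it in the other 3 libraries, and basal genes reach furthest down, to -4.39 for KRT15 in the low-dose library.

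Comparisons within a deposited table keep the authors' own scaling, and no table holds Control with BMN or with either dose of BMN/PAZA. In the table of BMN and the low-dose library, 25 of 33 members were at least 2-fold lower at low dose, against 2.22% of all symbols, and the median was -1.77. In the table of BMN and the high-dose library, 22 of 30 were lower, against 3.04%, with a median of -1.61. KRT5 differed by -5.17 between low dose and BMN and by -3.86 between high dose and BMN. In the table of PAZA and the low-dose library, 2 of 28 members, KRT5 and KRT77, were at least 2-fold lower at low dose, against 2.11%, and the median was -0.22. On this scale a gene under 1 unit in PAZA cannot be 2-fold lower, which held for 19 of the 28, so the count says little of those genes. It was 12 with a pseudocount of 0.1, against 10.0% of all symbols.

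The high-dose library held more epidermal transcript than the low-dose library. It was higher for 24 of the 30 members, against 35.8% of all symbols. KRT15 was 3.81 at high dose and 0 at low dose, KRT10 was 7.06 and 1.31, and DSP was 1.36 and 0.102. It also exceeded PAZA for 21 of the 30, against 39.2% of all symbols. The other 6, LGALS7, FLG, KRT16, SFN, GRHL1 and SPRR1B, were higher at low dose, SPRR1B by only 1.93 against 1.91.

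Basal and suprabasal genes did not keep 1 ratio. KRT1 plus KRT10 over KRT5 plus KRT14 was 1.03 in Control, 0.544 in BMN, 1.08 in PAZA, 2.61 in the low-dose and 2.01 in the high-dose library. The low-dose ratio rests on KRT10 and KRT14 alone, since KRT1 and KRT5 were listed at 0. All suprabasal over all basal members gave 2.01, 0.775, 11.6, 55.0 and 8.96 in the same order, led by SBSN. Without SBSN it was 0.849, 0.514, 1.73, 5.16 and 1.92, so PAZA was then above Control. The summed ratio was lowest in BMN, but KRT1 over KRT5, the basic keratins, was highest there, at 0.519 in Control, 0.636 in BMN, 0.467 in PAZA and 0.488 at high dose. KRT10 over KRT14, the acidic keratins, was 1.72, 0.446, 2.01 and 4.43 in the same libraries, so the acidic pair varied more between libraries than the basic pair. Within the basal layer KRT5 over KRT14 was 1.36 in Control, 1.07 in BMN, 1.5 in PAZA and 1.59 at high dose.

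The ratio of BMN to Control was not 1 shared factor. Over the 30 members it ran from 0.473 for SPRR1B to 34.2 for FLG, with a median of 3.35. It lay between 3 and 6 for 13 members, among them KRT1, KRT5, KRT14, DSP and TRP63. It was below 1.5 for 6, which were SPRR1B, SBSN, LY6D, SPRR1A, KRT77 and KRT10. It was above 6 for 5, which were SERPINB5 (6.98), KRT17 (17.6), KRT16 (24.2), KRT79 (30.7) and FLG (34.2). KRT16, KRT17 and KRT79 were under 1 unit in Control, so their ratios have a small base.

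**Figure D4:**
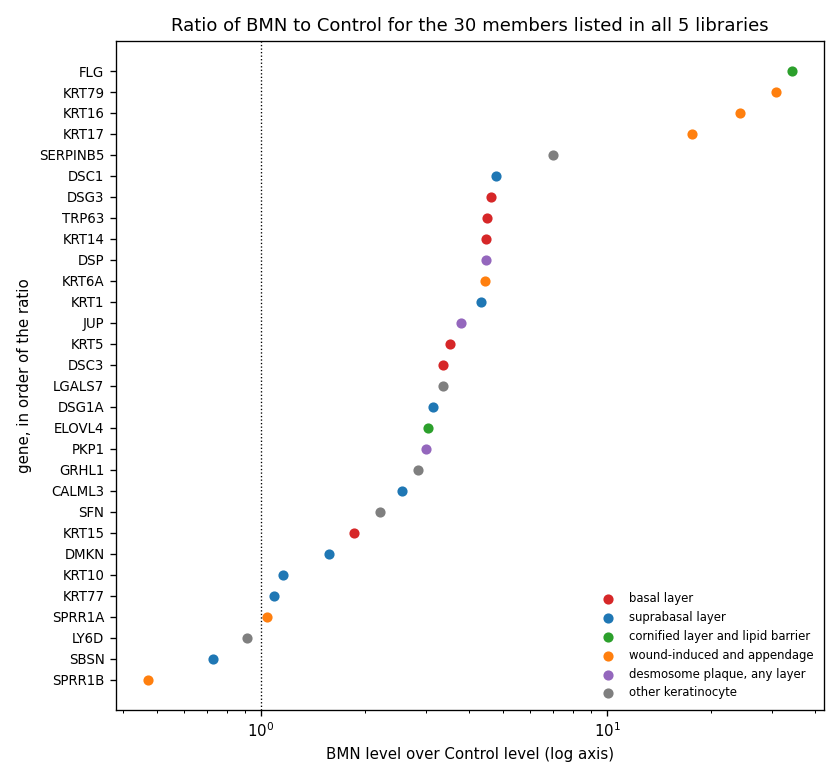
Level in BMN over level in Control (horizontal log axis) for the 30 members listed in all 5 libraries, in order of the ratio and colored by role, with a dotted line at 1. FLG, KRT79, KRT16 and KRT17 stand apart at 17.6 or more, and 3 members lie below 1.

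Likeness to KRT14 was measured over the libraries. On the log2(value + 1) scale, 18 of 29 members had a Pearson correlation with KRT14 above 0.9 over the 5 libraries, led by KRT1 (0.998), DSP (0.997) and DSC3 (0.996). Of 12057 other symbols listed in all 5 libraries, 9.56% were above 0.9. The 4 below 0.5 were SPRR1B (0.29), LGALS7 (-0.004), SBSN (-0.44) and SPRR1A (-0.68). The libraries are the only 5 points and each serves every gene, so these are descriptions. Among 15039 other symbols the 10 most like KRT14 were CENPF, RANGAP1, 1700025G04RIK, CFAP61, IRF2BP2, GM15542, SRP54C, GAS8, PRL6A1 and KIF15, of which 1700025G04RIK and GM15542 were listed in 4 libraries and CFAP61 and PRL6A1 in 3. CENPF, a kinetochore protein of dividing cells and the most alike at 0.9997, was 93.6 in Control, 116.6 in BMN, 73.1 in PAZA, 66.8 in the low-dose and 72.6 in the high-dose library. Its range was narrow beside that of KRT14, since a correlation takes no account of the size of a change.

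Other epidermal genes outside the 34 were counted in the same way. Of all symbols, 4.64% were higher and 3.7% lower in BMN, and 4.56% were higher and 4.41% lower in PAZA. At low dose 4.45% were higher and 4.85% lower, and at high dose 3.2% and 4.95%. These shares also apply to the lists of other cell types below. In lists this short, a count of 0 or 1 cannot be told from such shares. On this scale a gene under 1 unit in Control cannot be 2-fold lower. Of 11 other basal and hemidesmosome genes compared, 2 were at least 2-fold higher in BMN than in Control, and 3 were lower in each of PAZA, low dose and high dose, with 1 higher at each dose. The highest in Control were DST, ITGA6, COL7A1 and PERP. PERP, a desmosomal protein, was 11.2 in Control, 39.7 in BMN, 2.48 in PAZA, 0.432 in the low-dose and 4.16 in the high-dose library, whereas DST, a large linker protein of hemidesmosomes and other cells, stayed between 62.7 and 104.6. Of 17 other suprabasal and cornified genes, 5 were called higher in BMN and 0 lower, and 0 were called in PAZA. At low dose 1 was lower, and of 16 compared at high dose none was called. Most of them were under 1 unit in Control, where no lower call was possible. Among these, FLG2 was 0.552 in Control and 0.0360 in PAZA, whereas CDSN was 0.302 and 0.294. KLF4, a factor of epidermal differentiation that other cells also make, was 3.35 in Control and 9.76 in BMN, and SPINK5, a protease inhibitor of upper epidermis, was 1.69 in Control, 6.05 in BMN and 0 at low dose. Hair follicle genes, led by SOX9 and KRT27, gave 0 calls in any library among the 5 or 6 compared, of 22 in the list. Melanocyte genes, led by MITF and PMEL, gave 0 among 2 or 3, of 8 in the list. Of those listed in all 5 libraries, only SOX9 and MITF reached 1 unit in Control, so the others could not be called lower. Sebaceous gland genes, led by SCD1 and SOAT1, gave 0 of 4 in BMN and at low dose, 1 of 6 lower in PAZA, and 1 lower and 1 higher of 5 at high dose. Langerhans cell genes, led by LY75 and CD207, gave 1 higher of 5 in BMN and 1 lower of 5 at low dose, and CD207, which defines these cells, was at most 0.749 in any library.

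The labelled tissue was checked against markers in the same libraries. Of the lung epithelium genes, 1 of 8, HOPX, was listed in all 5 libraries, with a summed level of at most 0.808. Simple epithelium genes, which carcinoma cells make, were led by KRT8, between 114.7 in BMN and 171.1 at low dose, and KRT19, between 27.4 and 47.4, and they summed to between 152.2 and 214.4. KRT8 was therefore above KRT5 in every library. KRT18, the partner of KRT8, was listed at 0 in Control and at most 3.49 elsewhere, so that a value of 0 cannot be read as absence of a transcript. Genes of cells other than carcinoma cells were present, such as leukocyte genes, led by TYROBP and PTPRC, with sums of 141.4 to 213.6 and endothelial genes, led by PECAM1 and EMCN, with sums of 38.2 to 66.9. At least 2-fold higher than Control were 2 of 8 simple epithelium genes in BMN and 1 each in PAZA and at low dose, 1 of 6 leukocyte genes in BMN, and 2 of 8 endothelial genes in BMN and 1 in PAZA, with 0 lower in any.

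Genes of other tissues under the skin also differed between libraries, in other orders. The 8 skeletal muscle genes, led by TNNC2 and TNNT3, summed to 12.4 in Control, 203.4 in BMN, 69.0 in PAZA, 11.1 in the low-dose and 229.8 in the high-dose library. Against Control 8 of 8 were at least 2-fold higher in BMN and at high dose, 5 of 8 were higher in PAZA, and at low dose 1 of 7 was higher and 1 lower. Muscle genes were thus highest in the high-dose library, where epidermal genes were below Control. The 8 fibroblast genes, led by COL3A1 and DCN, summed to 331.9, 870.3, 556.5, 336.4 and 376.9, with 8 of 8 higher in BMN, 1 of 8 in PAZA and 0 at either dose. Adipocyte genes, led by FABP4 and LPL, summed to 49.5, 100.2, 118.4, 58.4 and 69.5, so their sum was higher in PAZA than in Control where epidermal genes were lower. FABP4 made up most of each sum, at 42.8, 73.0, 103.8, 50.7 and 62.3. LPL and CFD were highest in BMN and not in PAZA, and CIDEC was 1.66 in Control and 0 in PAZA. Of 5 or 6 adipocyte genes compared, 1, 2, 1 and 0 were higher in BMN, PAZA, low dose and high dose, and 0, 1, 1 and 1 were lower. Proliferation genes, led by TOP2A and CDK1, summed to between 801.4 and 1099 and gave 0 calls of 8 in each library. The part of any of these in the epidermal values was not tested, and in bulk tissue fewer keratinocytes and less RNA per keratinocyte cannot be told apart.

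**Figure D5:**
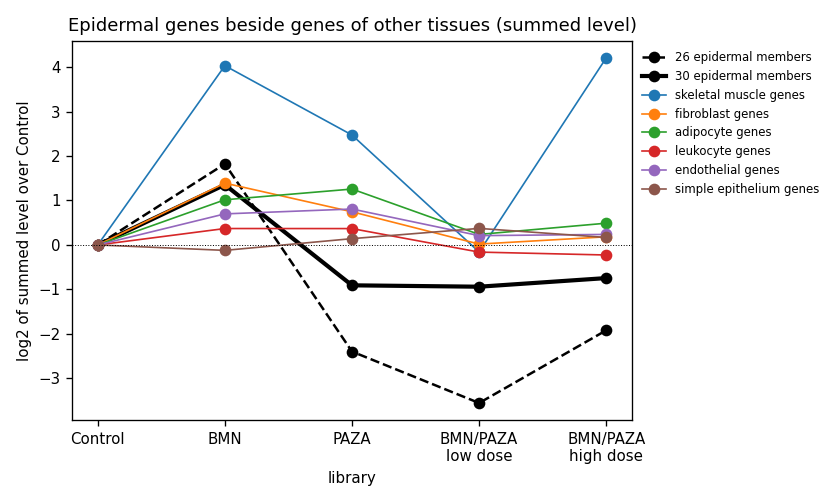
Log2 of the summed level over that in Control (vertical axis) in the 5 libraries (horizontal axis) for the 30 members (solid black), the 26 other than SBSN, LGALS7, SPRR1A and SPRR1B (dashed black, a choice made after seeing the values) and genes of 6 other tissues. Both black lines peak in BMN and lie below 0 in the 3 PAZA libraries, while the muscle line peaks in BMN and again at high dose.

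Depth is unknown because no counts were used here, but the step between low values gives relative depth. In scaled units 1 fragment was worth between 1.19 and 1.24 times as much in the other 4 libraries as in BMN, so BMN was the deepest by this measure. A library that stands in more than 1 table had values in a constant ratio for nearly all symbols. The ratio was 1 for BMN and high dose, 0.987 for PAZA, and, for low dose in the table with BMN, 1.05 over the table with PAZA and 0.307 over the table with high dose. No member was off its constant by more than 0.5%. Reads of near-identical genes may be split between them, which touches KRT6A and its copy KRT6B, KRT14, KRT16 and KRT17, SPRR1A and SPRR1B, and DSG1A and its copies.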

How the data were processed

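RNA from 1 library per group (both doses of BMN/PAZA, each agent alone, and Control) was sequenced by the study. Per the labels, the submitters' processing notes name HISAT2, StringTie and GRCm38, without versions. The authors deposited 5 tables of 2 groups each. Their unit is not named, and the deposited values were read as FPKM from their form, so depth is unknown and counting error could not be computed. Groups were taken from the treatment label.

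Control and PAZA were taken from 1 table, BMN and low dose from another, and high dose from the table it shares with BMN. Each column was scaled to sum to 1e+06 over 13979 shared symbols. Differences used log2(value + 1), a symbol entering where it was above 0 in either library, and at least 2-fold was called. With 1 library per group there was no test. The 34 members and all lists were chosen with earlier results of these data known. All members were named, as were 2 to 4 genes highest in Control of each other list (1 for lung epithelium, and 1 list is not reported here) and the 10 symbols most like KRT14. Shares of promoters used RefSeq windows of GRCm38.p6. Symbols turned into numbers in 3 tables, between 21 and 24 each, were not restored. Where a symbol was repeated (15 symbols in each table with high dose), 1 row was kept.

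The computation was tested on simulated data. Alternatives were a pseudocount of 0.1, a minimum of 1 unit, a 1.5-fold threshold, values as deposited, the table that holds both PAZA and low dose, median-of-ratios scaling, leaving out SBSN, other basal and suprabasal ratios and, chosen after seeing the data, leaving out 4 members. Python 3.11.15, numpy 2.4.6, pandas 2.3.3 and matplotlib 3.10.9 were used.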

Additional observations from a re-analysis of the deposited data

Results flagged for a closer look

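The members' median difference had opposite signs for BMN against Control and for low-dose BMN/PAZA against PAZA. BMN minus Control gave a median of 1.15, with 3 of 31 members below 0, against 44.9% of all symbols. Low-dose BMN/PAZA minus PAZA gave -0.22, with 22 of 28 below 0, against 40.9% of all symbols. The median of all symbols was 0.06 in both. The first value sets 2 tables that were normalised separately on 1 scale and the other is within 1 table, each rests on 2 libraries, and the difference between them was not tested. The labels do not give the dose of BMN alone or in the combination. The study's supplement names the same dose for BMN alone, PAZA alone and the low-dose combination. Of the 28 members, 19 were under 1 unit in PAZA, where log2(value + 1) leaves little room for a lower value. By count the high dose went the other way: high-dose BMN/PAZA was above PAZA for 21 of 30 members, against 39.2% of all symbols. Some of these differed little, such as KRT14 at 1.59 and 1.54, and the median of high dose against PAZA was not computed. Against Control the high-dose median was -0.90 over 30 members, beside -0.94 over 31 for PAZA. High dose and PAZA also come from tables that were normalised separately.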

How the results depend on the processing

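No paired analysis was possible because each group has 1 library. Of 100 alternative values for 20 results, 80 kept within 1.5 times of the value reported. This was read on a count, a ratio or the fold behind a median, and the range was chosen here in place of replicate error. No median changed sign, and a count or a ratio of levels has no sign to change. Some of the 80 could not move. A keratin ratio is unaffected by scaling, and neither a minimum of 1 unit nor leaving out SBSN could change a count. The 80 is therefore not a measure of how firm the results are. With a pseudocount of 0.1 the number of members lower than Control was 21 in PAZA and 21 at high dose (15.2% and 11.4% of all symbols), the medians were -2.18 in PAZA, -2.77 at low dose and -1.88 at high dose, and 12 were lower at low dose than in PAZA (10.0%). With a 1.5-fold threshold the numbers were 21 in PAZA, 19 at high dose and 8 at low dose against PAZA (14.5%, 18.1% and 6.41% of all symbols). With values as deposited 10 were lower at low dose than in Control (2.44%). Without SBSN, LGALS7, SPRR1A and SPRR1B, chosen after seeing the data, the summed level over Control was 0.190 in PAZA, 0.0851 at low dose and 0.264 at high dose. The suprabasal class over the basal class was 2.01 in Control, 11.6 in PAZA, 55.0 at low dose and 8.96 at high dose, led by SBSN, without which it was 0.849, 1.73, 5.16 and 1.92. KRT10 over KRT14 alone was 1.72 in Control, 2.01 in PAZA and 4.43 at high dose. The ratio in BMN was the lowest of the 5 libraries under each of these, but KRT1 over KRT5 was highest in BMN of the 4 libraries that gave it. The cause of the other changes was not tested.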
